A study of Bos taurus and Bos indicus with 12 samples.

Results

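The HOX genes measured in the skin of Holstein-Friesian and Brahman cattle were taken as every probe set whose platform symbol is HOX, a cluster letter A to D and a number. There were 13 such probe sets for 11 HOX genes, out of 9155 genes that the platform annotation names by a single symbol. The genes are HOXA4, HOXA5, HOXA9, HOXA10, HOXB3, HOXB4, HOXB7, HOXC5, HOXC6, HOXC13 and HOXD10. HOXA5 and HOXC6 have 2 probe sets each, called here the higher and the lower probe set by their mean signal. HOXA9 was chosen by its measured levels, which earlier results of these data showed to be low in most infested animals, so its infested and naive levels are given as a description without a test.

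Whole skin from 12 female cattle was each hybridised to 1 Affymetrix bovine expression array, and the values are RMA (robust multi-array average) expression on the log2 scale, where 1 unit is a doubling. Infested Holstein-Friesian cattle (3 animals, 6 months old) were compared with tick-naive Holstein-Friesian cattle (3 animals, 12 months old), and infested Brahman cattle (3 animals, 6 months old) with tick-naive Brahman cattle (3 animals, 18 months old). Brahman are zebu cattle, known to resist the cattle tick Rhipicephalus microplus, whereas the Holstein-Friesian dairy breed is of taurine origin. Infested animals had gone through successive heavy infestations with that tick, and their punch biopsies were taken at places where larvae about 24 h old were attached. All infested animals were younger than the naive animals of their breed, so infestation and age cannot be told apart in any infested against naive comparison. The naive animals of the breeds also differed in age. Breed and age therefore cannot be told apart between them, nor in the breed difference of the infested minus naive effects. The body site of the biopsies is not given in the sources used here.

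HOX genes encode homeodomain transcription factors that lie in clusters named A to D and give cells along the head to tail axis and along the limbs their position. Paralogs at the low-numbered (anterior) end of a cluster are in general switched on nearer the head, and those at the high-numbered (posterior) end nearer the tail and the far limb. Adult dermal fibroblasts keep a HOX pattern of the body site they come from, which is why these genes are read as a record of position in skin.

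The arrays hold only some of this family. The RefSeq annotation of the cattle assembly ARS-UCD2.0 lists 11 HOXA, 10 HOXB, 9 HOXC and 9 HOXD genes, of which 4, 3, 3 and 1 are measured here. In that annotation HOXA10 and HOXA9 are direct neighbours, followed by HOXA7 and HOXA5. The interval annotated as HOXB3 spans HOXB4, HOXB5 and HOXB6, HOXA4 and HOXA5 each overlap HOXA3, and HOXD10 overlaps HOXD11. HOXA5 also overlaps HOXA6 and a long noncoding RNA. HOXB3 overlaps a long noncoding RNA and microRNAs as well, and HOXC5 a microRNA. Signal of HOXB3, HOXB4, HOXA4, HOXA5 and HOXD10 may therefore include a neighbour's transcript, and the HOXB3 and HOXB4 probe sets may read the same transcript, since probe positions were not checked. The names of 7 of the probe sets carry the mark S1 and those of the other 6 the mark A1, which in this array's naming relate to the orientation of the source sequence. The A1 probe sets are HOXB3, HOXB4, HOXC5, HOXC13 and the lower probe sets of HOXA5 and HOXC6, and the strand each one reads was not checked.

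Keratinocyte genes were among the brightest on the arrays, as skin would have: the keratins KRT5, KRT14 and KRT10 had mean levels of 13.90, 14.37 and 14.25 log2 over the 12 arrays, and the desmosomal cadherin DSG1 one of 13.26. RNA integrity was read from an index, the mean log2 signal at the 5' end minus that at the 3' end of 5 control transcripts, which drops as signal is lost from 5' ends. The index was -2.73, -0.75 and -1.23 in infested Holstein-Friesian skin, against -1.39, -0.82 and -1.17 in naive Holstein-Friesian skin. It was -4.91, -2.56 and -2.07 in infested Brahman skin, against -1.04, -0.85 and -0.92 in naive Brahman skin. Infested Brahman array 1 had the lowest index and infested Holstein-Friesian array 1 the next lowest, and the HOX calls that change without both of them are given beside the result.

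Among the HOX genes that passed the test, those of the A cluster were lower in infested than in naive skin, while HOXB3 and HOXB4 were higher. In Holstein-Friesian skin HOXA5 fell 3.89-fold, HOXA10 2.21-fold and HOXB7 1.48-fold. In Brahman skin HOXB3 rose 5.08-fold and HOXB4 2.45-fold. HOXA9 had the widest range of the family, with low levels in 5 of the 6 infested animals. No HOX probe set passed between the naive animals of the breeds. In bulk skin, fewer cells of a type that expresses a gene and less of its RNA per cell cannot be told apart.

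HOXA9, a posterior-side gene of the A cluster also known for its part in blood cell progenitors, stood at 4.85, 4.07 and 4.35 log2 in infested Holstein-Friesian arrays, against 8.65, 8.37 and 8.93 in naive Holstein-Friesian arrays. It stood at 9.18, 4.40 and 5.14 in infested Brahman arrays, against 8.25, 8.75 and 8.90 in naive Brahman arrays. The Holstein-Friesian groups did not overlap, and infested Brahman array 1 was the only infested array at the level of the naive arrays.

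Of 6 infested arrays, 5 lay below the naive range of 8.25 to 8.93 and 1 lay above it. HOXA9 averaged 4.42 ± 0.39 in infested and 8.65 ± 0.28 in naive Holstein-Friesian skin (SD, n = 3 each), a difference of -4.23. It averaged 6.24 ± 2.57 in infested and 8.63 ± 0.34 in naive Brahman skin (SD, n = 3 each), a difference of -2.39. That Brahman mean rests on array 1: without it the infested mean was 4.77 and the difference -3.86.

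Within each array, HOXA9 was brighter than 74.1 to 82.3% of all probe sets in the 6 naive arrays and than 84.4% in infested Brahman array 1. In the other 5 infested arrays it was brighter than 12.2 to 27.5% only, so its place among the probe sets moved from the upper part of the range to the lower. No threshold of detection was used here, so a level near 4 log2 says that the signal is low and not that the transcript is absent.

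**Figure D1:**
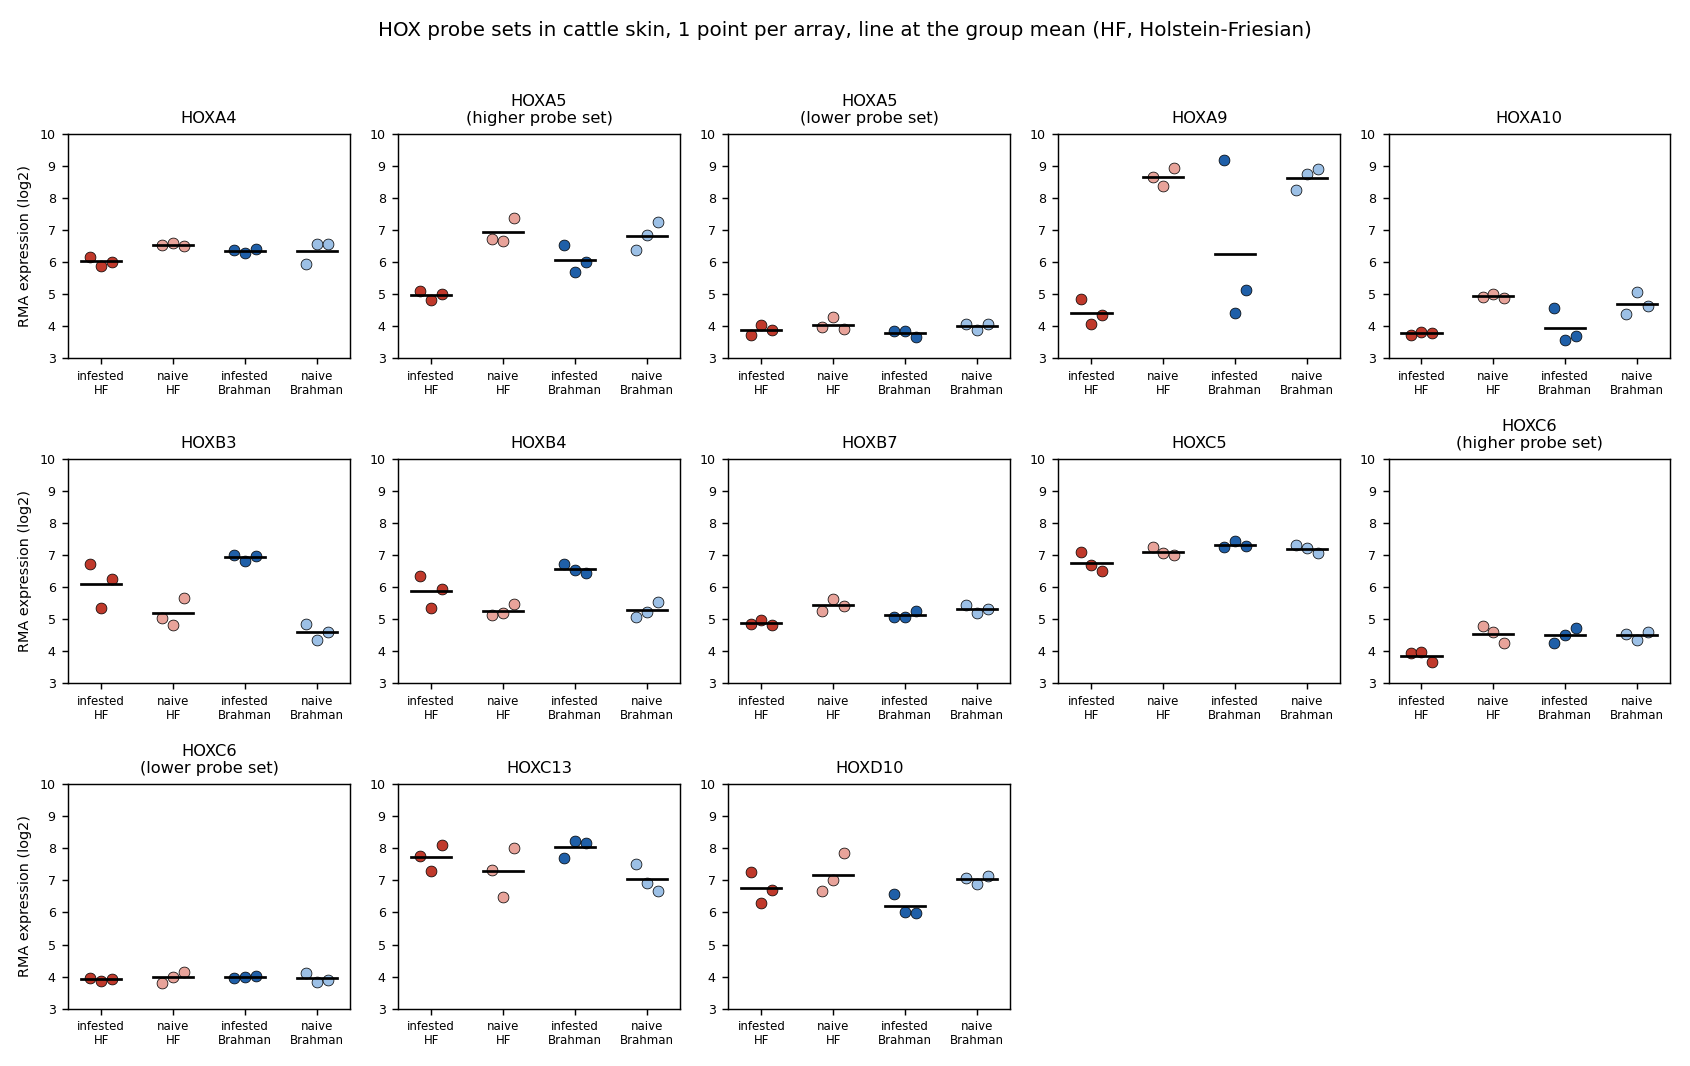
RMA expression (log2, vertical axis) of the 13 HOX probe sets in each of the 12 arrays, with a line at each group mean of 3 arrays. HOXA9 lies at 8.25 to 8.93 in the naive arrays and at 4.07 to 5.14 in 5 infested arrays, while infested Brahman array 1 stands at 9.18.

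HOXA10, the neighbour of HOXA9 and a posterior-side gene known in uterus and limb patterning, had 3.74, 3.83 and 3.79 log2 in infested Holstein-Friesian arrays, against 4.91, 5.01 and 4.89 in naive ones. It had 4.56, 3.57 and 3.71 in infested Brahman arrays, against 4.37, 5.06 and 4.63 in naive ones. The Holstein-Friesian groups were apart and tight, and in Brahman skin array 1 again lay inside the naive range while the other 2 infested arrays lay below it.

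The HOXA10 probe set was dim, brighter than only 15.3 to 26.4% of all probe sets in naive arrays. It was brighter than 16.8% in infested Brahman array 1 and than 3.78 to 8.62% in the other infested arrays. HOXA10 fell in infested Holstein-Friesian skin by 1.15 on the log2 scale (SE 0.24), 2.21-fold, with an adjusted p of 0.0272 in limma. The call was lost when any of naive Holstein-Friesian arrays 1, 2 or 3, or infested Holstein-Friesian arrays 2 or 3, was left out, with adjusted p of 0.0949, 0.0932, 0.0648, 0.0667 and 0.0808, while the difference stayed between -1.17 and -1.11. In Brahman skin the difference was -0.74 ± 0.24 (SE) with an adjusted p of 0.0536. Without infested Brahman array 1 it was -1.05 with an adjusted p of 0.00418, and it also passed with array weights and with the trended and robust prior.

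HOXA5, a central gene of the cluster known for its part in lung and skeletal patterning, had on its higher probe set 5.09, 4.82 and 5.0 log2 in infested Holstein-Friesian arrays, against 6.72, 6.67 and 7.39 in naive ones. It had 6.53, 5.69 and 5.99 in infested Brahman arrays, against 6.39, 6.83 and 7.24 in naive ones. Infested Holstein-Friesian arrays were all below the naive ones, and infested Brahman array 1 once more lay inside the naive range.

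HOXA5 fell in infested Holstein-Friesian skin by 1.96 on the log2 scale (SE 0.28), 3.89-fold, with an adjusted p of 0.00663. It stayed past the threshold of 0.05 in all 21 alternative settings of the fit, with adjusted p of 0.000885 to 0.0307. In Brahman skin the difference was -0.75 ± 0.28 (SE) with an adjusted p of 0.0766, and -0.98 with an adjusted p of 0.0292 without infested Brahman array 1. The lower HOXA5 probe set, at 3.65 to 4.28 log2 in all arrays, differed by -0.17 in Holstein-Friesian and -0.21 in Brahman skin, with adjusted p of 0.545 and 0.32. Its mean signal was higher than that of only 8.69% of probe sets.

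HOXA4, the most anterior HOXA gene measured, moved least in the cluster apart from that dim probe set. It had 6.17, 5.89 and 6.01 log2 in infested Holstein-Friesian arrays, against 6.53, 6.60 and 6.51 in naive ones, a difference of -0.52 ± 0.17 (SE) with an adjusted p of 0.0997, which became 0.0428 without naive Brahman array 1 and 0.0233 with array weights. It had 6.37, 6.28 and 6.41 in infested Brahman arrays, against 5.94, 6.55 and 6.55 in naive ones, a difference of 0.01 with an adjusted p of 0.979. The Holstein-Friesian groups did not overlap, and the Brahman groups did.

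Infested Brahman array 1 therefore stood at naive levels for HOXA9, HOXA10 and HOXA5. For HOXB3 and HOXB4 it was the highest of all 12 arrays, above the naive arrays with the other infested Brahman animals.

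HOXB3, an anterior gene of the B cluster known in hindbrain patterning, had 7.02, 6.82 and 6.99 log2 in infested Brahman arrays, against 4.86, 4.34 and 4.60 in naive Brahman arrays. It had 6.72, 5.34 and 6.25 in infested Holstein-Friesian arrays, against 5.05, 4.82 and 5.68 in naive Holstein-Friesian arrays. The Brahman groups were far apart, and the Holstein-Friesian groups overlapped through infested array 2 and naive array 3.

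HOXB3 rose in infested Brahman skin by 2.35 ± 0.32 log2 (SE), 5.08-fold, with an adjusted p of 0.00142, and it passed in each of the 20 alternatives that measured it, with differences of 1.83 to 2.48. In Holstein-Friesian skin the difference was 0.92 ± 0.32 with an adjusted p of 0.124, and 1.30 with 0.0396 without infested array 2. HOXB3 was brighter than 16.0 to 35.6% of probe sets in naive arrays, and than 56.4% in infested Brahman array 1 and 30.4 to 54.8% in the other infested arrays.

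HOXB4, its neighbour and a known regulator of blood stem cells, had 6.73, 6.53 and 6.46 log2 in infested Brahman arrays, against 5.08, 5.23 and 5.53 in naive ones. It had 6.35, 5.34 and 5.96 in infested Holstein-Friesian arrays, against 5.12, 5.19 and 5.48 in naive ones. The order of the arrays was much as for HOXB3, with infested Holstein-Friesian array 2 inside the naive range for both genes.

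HOXB4 rose in infested Brahman skin by 1.29 ± 0.23 log2 (SE), 2.45-fold, with an adjusted p of 0.00474. In Holstein-Friesian skin the difference was 0.62 ± 0.23 with an adjusted p of 0.149, and 0.89 with 0.0486 without infested array 2. As HOXB4 lies within the annotated HOXB3 interval, these calls may not be separate.

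The integrity index moved with both genes: the 4 arrays of highest HOXB3 and of highest HOXB4 were the 3 infested Brahman arrays and infested Holstein-Friesian array 1, which were also the 4 arrays of lowest index, at -4.91 to -2.07. Infested Holstein-Friesian array 2, with the highest index of all 12 arrays at -0.75, had the lowest HOXB3 and HOXB4 levels of the infested arrays. All infested Brahman arrays had a lower index than any naive Brahman array, the latter at -1.04 to -0.85. Index and infestation therefore cannot be told apart in Brahman skin. A fit with the index as a covariate carries its slope within groups across that gap. With the index as a covariate, HOXB3 in Brahman skin kept a difference of 1.83 with an adjusted p of 0.0279, while HOXB4 had 0.86 with an adjusted p of 0.103. In that fit HOXA10 and HOXD10 passed in Brahman skin, at -1.19 (adjusted p = 0.0439) and -1.49 (adjusted p = 0.0399). With both arrays of lowest index left out, HOXB3 and HOXB4 still passed in Brahman skin. The infested Brahman arrays that remained, at -2.56 and -2.07, still lay below all naive Brahman arrays. That fit therefore cannot separate the index from infestation. From the lowest to the highest index, the infested arrays had HOXA9 at 9.18, 4.85, 4.40, 5.14, 4.35 and 4.07 log2 and HOXA10 at 4.56, 3.74, 3.57, 3.71, 3.79 and 3.83. With the index as a covariate the HOXA9 difference was -5.07 in Brahman skin, against -2.39 without it.

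**Figure D2:**
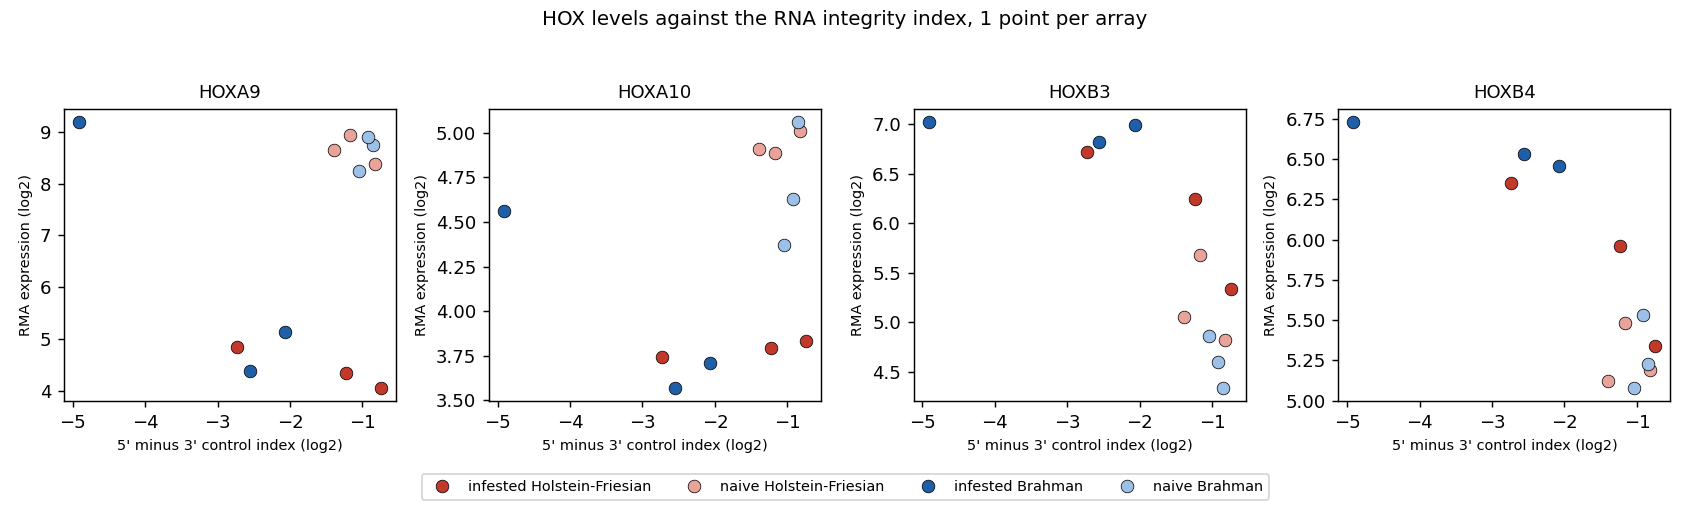
RMA expression (log2, vertical axes) of HOXA9, HOXA10, HOXB3 and HOXB4 against the index of 5' minus 3' control signal (log2, horizontal axes), 1 point per array. The 4 arrays with an index of -2.07 or lower hold the 4 highest values of HOXB3 and of HOXB4, whereas low HOXA9 occurs at indices from -2.73 to -0.75.

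HOXB7, a central gene listed next to HOXB3 in the annotated order of the B cluster, went the other way from HOXB3 and HOXB4 in Holstein-Friesian skin. It had 4.85, 4.99 and 4.81 log2 in infested Holstein-Friesian arrays, against 5.27, 5.64 and 5.42 in naive ones, without overlap. It fell there by 0.56 on the log2 scale (SE 0.14), 1.48-fold, with an adjusted p of 0.0418. The call is marginal: it was lost in 14 of 20 alternatives, among them median centring (adjusted p = 0.0578), cyclic loess (0.0593) and the replicate block (0.0634), and leaving out single arrays gave differences of -0.65 to -0.46. In Brahman skin HOXB7 had 5.07, 5.07 and 5.25 in infested arrays, against 5.44, 5.19 and 5.32 in naive ones, a difference of -0.18 with an adjusted p of 0.365.

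HOXC13, the most posterior HOX gene measured and a factor of hair and nail keratin expression, had a mean signal over the 12 arrays above that of 62.5% of probe sets. It had 7.75, 7.30 and 8.09 log2 in infested Holstein-Friesian arrays, against 7.33, 6.49 and 8.01 in naive ones, and the groups overlapped. It had 7.70, 8.23 and 8.17 in infested Brahman arrays, against 7.52, 6.91 and 6.68 in naive ones, and these did not. Neither difference passed, at 0.43 ± 0.36 (SE, adjusted p = 0.532) in Holstein-Friesian and 1.00 ± 0.36 (SE, adjusted p = 0.0741) in Brahman skin.

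HOXC6 and HOXC5, central genes of the C cluster known in thoracic patterning, passed in neither breed in the fit over all 12 arrays. The higher HOXC6 probe set averaged 3.87 log2 in infested and 4.55 in naive Holstein-Friesian skin, without overlap, a difference of -0.68 ± 0.18 (SE) with an adjusted p of 0.0528. Leaving out infested Brahman array 1 or naive Holstein-Friesian array 3 took it past the threshold, with adjusted p of 0.026 and 0.0465 and differences of -0.68 and -0.83. It passed as well without the 2 arrays of lowest index (-0.72, adjusted p = 0.0256), with the index as a covariate (0.0491), with array weights (0.00909) and with the trended and robust prior (0.0391). In Brahman skin it averaged 4.50 log2 in both groups. HOXC5 averaged 6.77 in infested and 7.11 in naive Holstein-Friesian skin, a difference of -0.34 (adjusted p = 0.261) that passed without the 2 arrays of lowest index (-0.51, adjusted p = 0.035) and with array weights (0.0269). It averaged 7.33 in infested and 7.21 in naive Brahman skin (adjusted p = 0.61). The lower HOXC6 probe set stayed at 3.79 to 4.15 in every array.

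HOXD10, a posterior gene known in hind limb patterning and the only D-cluster gene measured, had 7.26, 6.28 and 6.70 log2 in infested Holstein-Friesian arrays, against 6.68, 7.01 and 7.84 in naive ones. It had 6.58, 6.00 and 5.98 in infested Brahman arrays, against 7.07, 6.89 and 7.14 in naive ones. The Holstein-Friesian groups overlapped (difference -0.43, adjusted p = 0.464), and the Brahman groups did not (difference -0.84 ± 0.31, adjusted p = 0.0806). Without naive Holstein-Friesian array 3, which held the highest HOXD10 value, the Brahman comparison passed for HOXD10 and HOXC13, with adjusted p of 0.0484 and 0.0491. HOXC13 also passed without naive Holstein-Friesian array 2 (adjusted p = 0.0418), and both genes passed with array weights (0.0226 for HOXD10 and 0.017 for HOXC13).

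**Figure D3:**
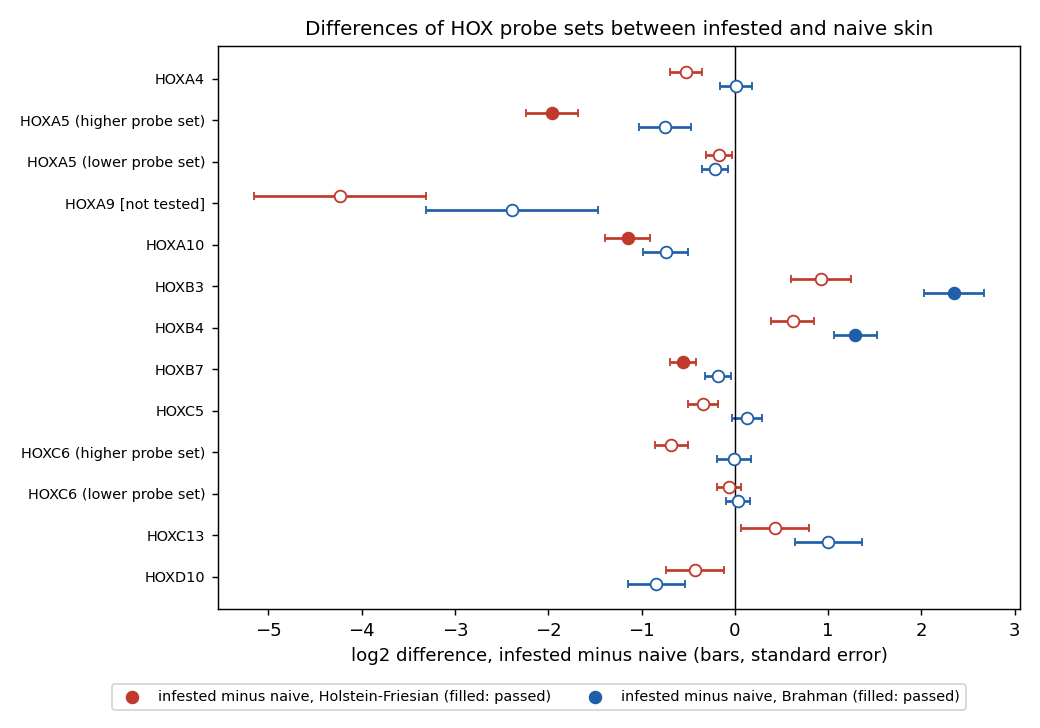
Differences of the 13 HOX probe sets (infested minus naive, log2, horizontal axis) in Holstein-Friesian and Brahman skin, with bars of 1 standard error from the fit over all arrays. Filled points passed an adjusted p of 0.05, and HOXA9 is shown without a test; HOXA5, HOXA10 and HOXB7 were lower in Holstein-Friesian and HOXB3 and HOXB4 higher in Brahman skin.

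Counted together, 3 of the 12 HOX probe sets tested without HOXA9 fell and 0 rose in infested Holstein-Friesian skin, a share of 25.0%, where 5.02% of all 24016 probe sets passed in either direction, 2.34% as lower and 2.68% as higher. An unadjusted p under 0.05 was found for 7 of the 12, where 21.6% of all probe sets had one. The median difference was -0.38 over the HOX probe sets and -0.03 over all probe sets. The infested and naive arrays did not overlap for 5 of the 12, all of them lower (HOXA4, HOXA10, HOXB7 and the higher probe sets of HOXA5 and HOXC6), where 30.3% of all probe sets did not overlap and 16% were lower. Without the 2 arrays of lowest index HOXC5 and the higher HOXC6 probe set passed as well, making 5 of the 12, where 17% of all probe sets passed in that fit.

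In infested Brahman skin 2 of the 12 rose and 0 fell, a share of 16.7%, where 19.8% of all probe sets passed, 9.54% as higher and 10.2% as lower. An unadjusted p under 0.05 was found for 6 of the 12, where 34.7% of all probe sets had one. The share of HOX probe sets called was thus close to the background in this breed. The medians were 0.0 over the HOX probe sets and 0.04 over all. The arrays did not overlap for 5 of the 12, with 3 higher and 2 lower, where 38.5% of all probe sets did not overlap, 19.3% in each direction. Without the 2 arrays of lowest index 5 of the 12 passed, where 26.0% of all probe sets did in that fit, with HOXA10 (difference -1.05, adjusted p = 0.00278), HOXA5 (-0.98, 0.0247) and HOXD10 (-1.04, 0.0236) lower beside HOXB3 and HOXB4 higher.

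Sorted by place along the axis, the genes called were central or posterior in Holstein-Friesian skin and anterior in Brahman skin. This split is one of calls only, as the called genes moved the same way in the other breed without passing. HOXB3 and HOXB4 differed by 0.92 and 0.62 in Holstein-Friesian skin. The higher HOXA5 probe set, HOXA10 and HOXB7 differed by -0.75, -0.74 and -0.18 in Brahman skin. No HOX probe set passed for a breed difference in effect, and the Brahman share was close to the background. HOXA9, a posterior gene, is left out here as it was not tested. HOXB3 and HOXB4 may read the same transcript, so the 2 anterior calls may not be separate. Of all probe sets, 5.02% passed in Holstein-Friesian skin, 2.34% as lower and 2.68% as higher. In Brahman skin 19.8% passed, 9.54% as higher and 10.2% as lower. Of the anterior genes HOXA4, HOXB3 and HOXB4, 0 of 3 passed in Holstein-Friesian skin and 2 of 3 rose in Brahman skin. Of the 6 probe sets of the central genes HOXA5, HOXB7, HOXC5 and HOXC6, 2 fell in Holstein-Friesian skin and 0 passed in Brahman skin. Of the posterior genes HOXA10, HOXC13 and HOXD10, 1 of 3 fell in Holstein-Friesian skin and 0 passed in Brahman skin. Among the posterior genes the differences ran both ways in each breed, from -1.15 for HOXA10 to 0.43 for HOXC13 in Holstein-Friesian and from -0.84 for HOXD10 to 1.00 for HOXC13 in Brahman skin.

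Grouped by cluster, the levels of the measured genes other than HOXA9 ran as follows. The mean of HOXA4, HOXA5 and HOXA10 relative to their naive mean was -1.04, -1.20 and -1.11 log2 in infested Holstein-Friesian arrays and -0.22, -0.86 and -0.67 in infested Brahman arrays, against -0.47 to 0.22 in the naive arrays. The same mean for HOXB3, HOXB4 and HOXB7 was 0.79, 0.04 and 0.49 in infested Holstein-Friesian arrays and 1.10, 0.96 and 1.05 in infested Brahman arrays, against -0.26 to 0.35 in the naive arrays. The A mean was thus lower in 5 of 6 infested arrays than in any naive array, and the B mean higher in 5 of 6, but members went apart. HOXB7 lay below the naive range in 5 of 6 infested arrays, so the B mean was raised by HOXB3 and HOXB4, and HOXA4 lay below it in 1 of 6. The exceptions to the means were different animals, infested Brahman array 1 for the A cluster and infested Holstein-Friesian array 2 for the B cluster. These levels describe the measured genes, and no test was made on them.

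**Figure D4:**
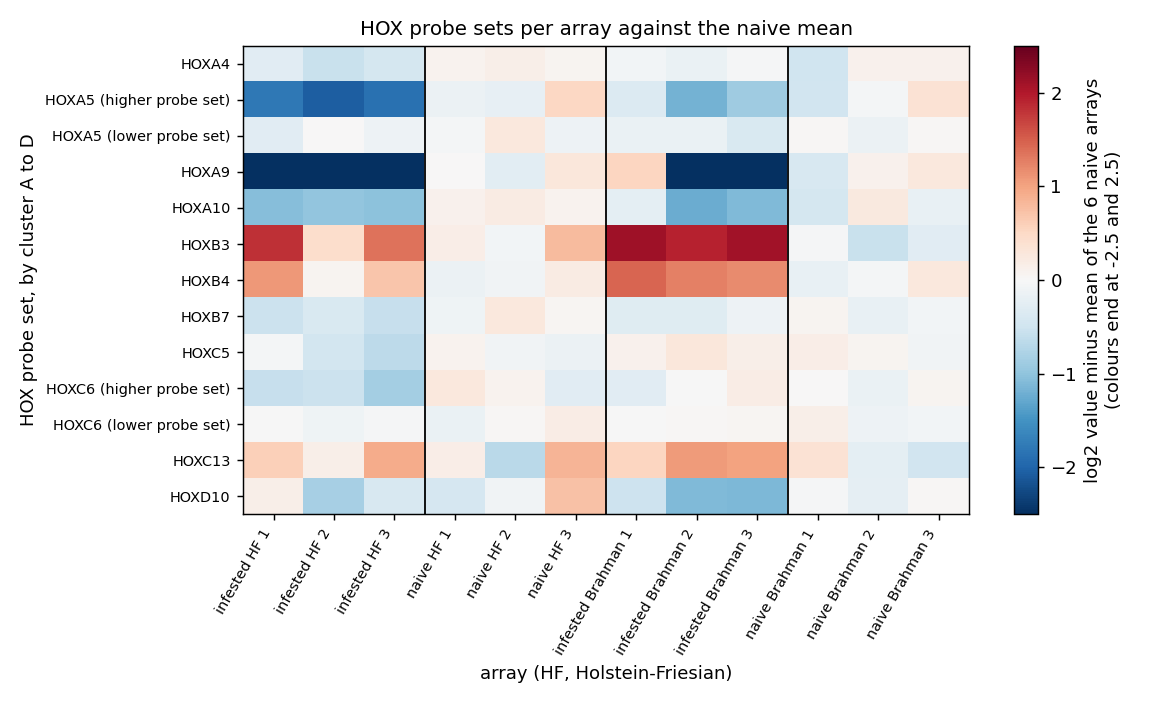
Each HOX probe set (rows, by cluster A to D) in each array (columns, infested left of naive in each breed) as the difference in log2 from the naive mean over 6 arrays. HOXA5, HOXA9 and HOXA10 are low in 5 infested arrays and near the naive mean in infested Brahman array 1, and HOXB3 and HOXB4 are high in the infested arrays other than infested Holstein-Friesian array 2.

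Whether the breeds differed in the infested minus naive effect was tested as the Brahman effect minus the Holstein-Friesian effect. The gap in age between infested and naive animals was wider in Brahman cattle, so breed and age gap cannot be told apart here. None of the 12 HOX probe sets passed in limma, where 0.00416% of all probe sets did, and 4 of the 12 had an unadjusted p under 0.05, where 7.46% of all probe sets did. HOXB3 had a difference between effects of 1.43 ± 0.45 (SE, adjusted p = 0.589), with a 95% interval of 0.43 to 2.42 that takes no account of the number of probe sets tested. The higher HOXA5 probe set had 1.21 ± 0.39 (SE, adjusted p = 0.589), with an interval of 0.35 to 2.06. The other 2 were the higher HOXC6 probe set (0.67 ± 0.25) and HOXA4 (0.53 ± 0.24). A fall in one breed only was therefore not shown for HOXA5, nor a rise in one breed only for HOXB3.

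Naive Brahman and naive Holstein-Friesian skin overlapped in every HOX level. These animals were 18 and 12 months old, so breed and age cannot be told apart in this comparison. All 13 probe sets overlapped between the breeds, where 14.5% of all probe sets did not, 0 passed, where 0.025% of all did, and 0 had an unadjusted p under 0.05, where 4.78% of all did. The differences, Brahman minus Holstein-Friesian, ran from -0.59 for HOXB3 (95% interval -1.29 to 0.11) to 0.10 for HOXC5. HOXA9, at 8.25 to 8.90 in naive Brahman and 8.37 to 8.93 in naive Holstein-Friesian arrays, differed by -0.01 ± 0.92 (SE, adjusted p = 1). Its interval of -2.05 to 2.02 is wide because the fit pools the spread of all groups, that of infested Brahman skin included.

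Among the infested animals, all 6 months old, no HOX probe set passed between Brahman and Holstein-Friesian skin. The arrays did not overlap for 7 of 12 probe sets, all higher in Brahman (HOXA4, HOXB3, HOXB4, HOXB7, HOXC5 and the higher probe sets of HOXA5 and HOXC6), where 13.4% of all probe sets did not overlap and 9.24% were higher. With limma 0 of 12 passed, where 0.167% of all probe sets did, and 5 of 12 had an unadjusted p under 0.05, where 13% of all did. The higher HOXA5 probe set differed by 1.10 ± 0.28 (SE, adjusted p = 0.183), the higher HOXC6 probe set by 0.63 (0.224), HOXC5 by 0.57 (0.229), HOXB4 by 0.69 (0.278) and HOXB3 by 0.84 (0.321), while HOXD10 and the lower HOXA5 probe set were at -0.56 and -0.09. The index lay at -4.91 to -2.07 in the infested Brahman arrays and at -2.73 to -0.75 in the infested Holstein-Friesian arrays, and 0 of the 12 passed in a fit that included it. Without the 2 arrays of lowest index 3 passed, HOXB4 (0.84, adjusted p = 0.0474), HOXC5 (0.77, 0.0148) and the higher HOXC6 probe set (0.79, 0.0372), where 9.16% of all probe sets did. Without infested Holstein-Friesian array 1 alone HOXB4 and HOXC5 passed (adjusted p = 0.0379 and 0.0192), where 5.14% of all did, and with array weights HOXC5 and the higher HOXC6 probe set (0.0277 and 0.0481), where 4.51% did.

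Proteins of the MEIS, PBX and PKNOX families bind DNA together with HOX factors. Of 6 measured of 9 listed genes of these cofactors, 0 passed in Holstein-Friesian skin, where 5.02% of all probe sets did, and 1 rose in Brahman skin, where 9.54% of all rose, with medians of -0.35 and -0.13, against -0.03 and 0.04 over all probe sets. MEIS2 had 7.89, 7.72 and 8.43 log2 in infested Brahman arrays, against 6.78, 7.27 and 7.30 in naive ones, and rose by 0.90 ± 0.23 (SE, adjusted p = 0.021), while its other probe set differed by -0.13. MEIS3 differed by -0.60 ± 0.16 in Holstein-Friesian skin (adjusted p = 0.0504), and of its other 2 probe sets 1 passed, at -0.59 (adjusted p = 0.0393). PBX2 did not pass in Brahman skin on its brightest probe set, but its other probe set passed as lower, at -0.93.

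Of 15 measured of 32 listed chromatin and retinoid regulators of HOX genes, 0 passed in Holstein-Friesian skin, where 5.02% of all probe sets did, and 2 rose and 2 fell in Brahman skin, where 9.54% of all rose and 10.2% fell. The medians were -0.04 and -0.17. RNF2, the Polycomb ubiquitin ligase, fell by 1.48 (SE 0.38, adjusted p = 0.0217) and its partner RING1 by 1.07 (SE 0.31, adjusted p = 0.033). EZH2, the Polycomb histone methyltransferase, rose by 0.72 ± 0.22 (SE, adjusted p = 0.044), and the retinoic acid receptor RARA by 0.81 ± 0.22 (SE, adjusted p = 0.0291), with its other probe set at -0.54. MEN1 and EED did not pass on their brightest probe sets. The other MEN1 probe set passed in Brahman skin, at 0.59. Of 23 EED probe sets, at -1.44 to 1.06 in Brahman skin, 5 passed there and 1 in Holstein-Friesian skin.

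Infested Brahman array 1 was farthest from the naive arrays for RING1 and EZH2. RING1 had 7.63, 9.07 and 8.85 log2 in infested arrays, against 9.51, 9.54 and 9.71 in naive ones, and without array 1 it differed by -0.62. EZH2 had 9.27, 8.36 and 8.30 in infested arrays, against 7.90, 8.11 and 7.74 in naive ones, and without array 1 it differed by 0.41 (adjusted p = 0.0575).

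Other genes mark position in skin and limb. Of 10 measured of 45 listed, 0 passed in Holstein-Friesian skin, and 2 rose and 2 fell in Brahman skin, against the same 5.02%, 9.54% and 10.2% of all probe sets. The medians were 0.05 and 0.03. PITX1, the hind limb selector gene, had 6.45, 6.08 and 6.08 log2 in infested Brahman arrays, against 7.29, 6.54 and 7.13 in naive ones, and fell by 0.78 (SE 0.21, adjusted p = 0.0242). Its other probe set had 5.59, 5.48 and 5.45 in infested Brahman arrays, against 7.84, 6.53 and 7.68 in naive ones, and fell by 1.84 (SE 0.38, adjusted p = 0.00879). In Holstein-Friesian skin these probe sets differed by -0.49 (adjusted p = 0.192) and -1.39 (adjusted p = 0.0606), so all 4 differences of PITX1 were negative. BARX2, a homeobox gene of hair follicle and muscle, fell by 0.95 in Brahman skin (SE 0.25, adjusted p = 0.0239), and by 0.60 without infested Brahman array 1. EMX2 rose by 0.88 ± 0.25 (SE, adjusted p = 0.0336, or 0.0504 with the replicate block) and MSX1 by 0.91 ± 0.29 (SE, adjusted p = 0.047), with the other MSX1 probe set at 0.07. With the index as a covariate, none of the Brahman calls of these 9 cofactors, regulators and position genes remained on the probe set of highest mean, with adjusted p of 0.0635 to 0.707. Each of the 9 was also lost when at least 1 of the naive Brahman arrays was left out, and they held in 8 (EZH2) to 17 (MEIS2) of 20 or 21 alternatives.

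Markers of several cell types moved beside the HOX genes. Their counts are set against all probe sets, of which 2.68% rose and 2.34% fell in Holstein-Friesian skin, and 9.54% rose and 10.2% fell in Brahman skin. Sebaceous and sweat gland markers were lower in all infested arrays, at -1.51 to -1.02 log2 relative to the naive mean, against -0.41 to 0.28 in naive arrays, and 5 of 8 fell in Holstein-Friesian skin, while 6 fell and 1 rose in Brahman skin. Dermal fibroblast markers were higher, at 0.70 to 1.05 in infested arrays, against -0.33 to 0.30 in naive ones, with 3 of 9 risen in Holstein-Friesian and 6 of 9 in Brahman skin and 0 fallen.

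Leukocyte markers lay at 0.41 to 1.30 in infested arrays, against -0.43 to 0.59 in naive ones, with 2 and 1 of 9 risen in Holstein-Friesian and Brahman skin. Skeletal muscle markers lay at -1.08 to -0.69 in infested arrays, against -0.85 to 1.25 in naive ones, with 0 passing in Holstein-Friesian skin, and 1 risen and 2 fallen of 9 in Brahman skin. Adipocyte markers lay at 1.90, 0.94 and 1.41 in infested Brahman arrays and at 0.35, 0.14 and 0.66 in infested Holstein-Friesian arrays, against -0.59 to 0.51 in naive arrays, and 3 of 5 rose in Brahman skin. None of the 4 epidermal and 2 hair follicle markers passed in either breed. The mean of the 2 hair follicle markers still lay at 0.32 to 0.63 in infested arrays, against -0.28 to 0.31 in naive ones. The epidermal mean overlapped, at -0.17 to -0.01 in infested and -0.19 to 0.18 in naive arrays. Of 9 endothelial markers 0 passed in Holstein-Friesian skin and 1 fell in Brahman skin.

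In infested Brahman array 1 HOXA9, HOXA10 and HOXA5 stood at naive levels. Gland markers were there at -1.51, fibroblast markers at 0.83, leukocyte markers at 1.10, muscle markers at -1.08, adipocyte markers at 1.90 and hair follicle markers at 0.49. Each of these lay outside the naive range. The epidermal and endothelial markers of that array, at -0.03 and 0.02, lay inside the naive range. Its index of -4.91 was the lowest of all arrays. The part of these cell types in the HOX differences was not tested.

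**Figure D5:**
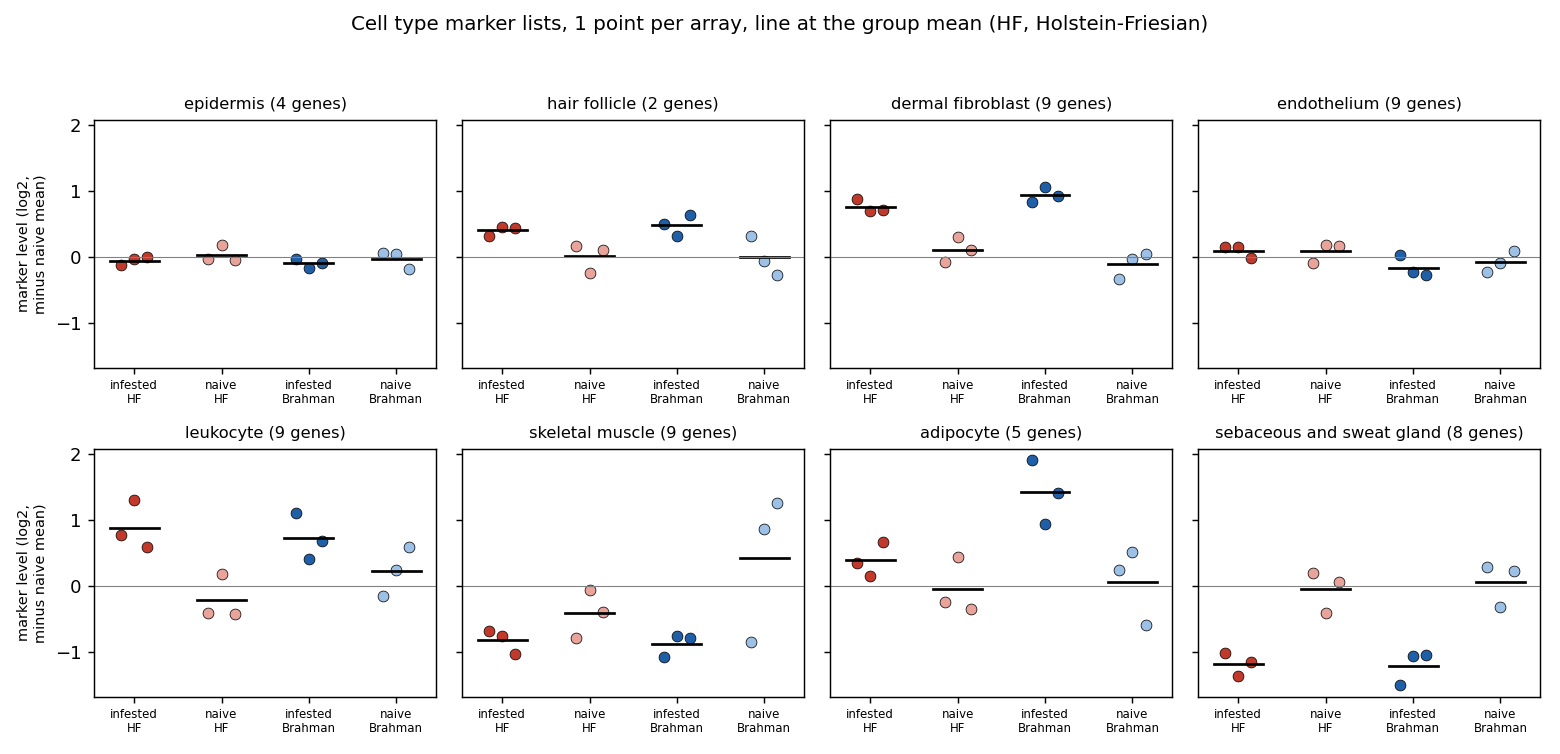
Mean level of each cell type marker list (log2, relative to the mean of the 6 naive arrays, vertical axes) in each array, with a line at each group mean. Gland markers lie at -1.51 to -1.02 and fibroblast markers at 0.70 to 1.05 in all 6 infested arrays, outside the naive arrays' ranges.

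The probe sets most like HOXA9 across the 12 arrays, among those named by a single gene symbol, were ENO4 (Pearson r = 0.96), PDHA1 (0.95), ARHGEF25 (0.94), OXNAD1 (0.94) and DNM1L (0.93). These values describe 12 arrays that fall apart into high and low HOXA9, so they carry no test. PDHA1 has 4 probe sets and ENO4 and ARHGEF25 have 2 each, of which 1 per gene is given, so the likeness is of that probe set. ARHGEF25 had 5.82, 5.51 and 4.93 log2 in infested Holstein-Friesian arrays and 6.61, 5.15 and 5.43 in infested Brahman arrays, against 6.92 to 7.42 in naive arrays. PDHA1, a subunit of pyruvate dehydrogenase, had 10.10, 10.25 and 10.04 in infested Holstein-Friesian arrays and 10.65, 10.21 and 10.30 in infested Brahman arrays, against 10.66 to 10.86 in naive arrays. Both were nearer the naive arrays in infested Brahman array 1 than in any other infested array, as HOXA9 was, though over a smaller range.

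By values minus group means, the most alike were SNAP23, ZFP69, SCAF11, TCF7 and ZBTB24, all at an r of 0.98. Across the 12 arrays their plain r with HOXA9 was only -0.12 to 0.35. SNAP23 and TCF7 have 2 probe sets each and SCAF11 has 3, of which 1 per gene was among these. ZBTB24 had 6.09, 5.86 and 6.10 log2 in infested Holstein-Friesian arrays and 7.16, 5.85 and 5.99 in infested Brahman arrays, against 5.93 to 6.12 in naive arrays. The likeness by this measure thus rests on the height of infested Brahman array 1.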

How the data were processed

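The deposited table holds log2 expression, 1 value per probe set and array. Per the submitters' processing notes, the authors used RMA. Which software, version and probe set definition served is not given in the sources used here, and the log2 scale was inferred from the values. The table has 24128 probe sets, of which 112 controls were dropped and the remaining 24016 tested without a filter. By the platform annotation 13292 of these have 1 gene symbol, 86 several and 10638 none. The gene IDs of all 13 HOX probe sets had the same symbol in RefSeq.

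One model with a mean for each of the 4 groups was fitted to the 12 arrays with limma 3.58.1 in R 4.3.3 (lmFit, eBayes; 8 residual and 3.03 prior degrees of freedom). Two-sided p-values were adjusted by Benjamini-Hochberg over all probe sets in each of 5 comparisons, with 0.05 as the threshold, and adjusted p-values in the text come from this fit. The procedure was tested on simulated data. Replicates are separate animals, and their number limits the precision.

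The HOX genes, the gene lists and the alternatives were chosen with earlier results of these data known. Each listed gene is read on its probe set of highest mean. The level of a list in an array averages, over its genes, the difference from the mean of the naive arrays. The rule for naming took HOXA9, HOX probe sets past the threshold, the remaining HOX gene of highest level and of largest difference (HOXC13), up to 4 members of each other list, those past the threshold first, and the 5 probe sets most like HOXA9 by each of 2 measures. The remaining HOX genes are given as well.

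The groups share replicate numbers. Same-numbered infested and naive Holstein-Friesian arrays deviated together, with correlations of 0.113 to 0.249, and same-numbered Brahman arrays did not, with -0.189 to -0.053. With every correlation over 0.1 required, only the Holstein-Friesian numbers met that rule, and no label gives a reason. Single correlations between other groups were also over 0.1, up to 0.328 between naive Holstein-Friesian and naive Brahman arrays. The infested and naive animals are separate animals, so these values do not show pairing. No pair of arrays had more than 0.104% of values in common. The alternatives tried were cyclic loess, median centring, a filter on low signal (40 percent quantile), array weights, a prior that is trended and robust, a fit to only the 6 arrays compared, the replicate block, each array left out in turn, the 2 arrays of lowest index left out, and the index as a covariate.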

Additional observations from a re-analysis of the deposited data

How the results depend on the processing

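No call and neither HOXA9 difference between infested and naive skin changed sign. The HOXA9 difference between infested Brahman and infested Holstein-Friesian skin, not tested, was 1.82. It ran up to 2.74 and changed sign with the index as a covariate, at -0.1. Differences near 0 that passed no test changed sign as well: in Brahman skin HOXA4 ran from -0.19 to 0.11, HOXC5 from -0.02 to 0.22, the higher HOXC6 probe set from -0.12 to 0.18 and the lower from -0.06 to 0.13, and in Holstein-Friesian skin the lower HOXC6 probe set from -0.15 to 0.03. Between infested Brahman and infested Holstein-Friesian skin HOXA10 ran from -0.17 to 0.34 and the lower HOXC6 probe set from -0.05 to 0.11. The count of HOX probe sets called was 3 in infested against naive Holstein-Friesian skin, and became 1 with the low-signal filter, which left 5 tested (7.62% of all probe sets passed), 6 with array weights (19.1%), 5 without the 2 arrays of lowest index (17%), and 1 to 4 when single arrays were left out (0.654 to 10.7%). It was 1 without infested Holstein-Friesian array 3 or naive Holstein-Friesian array 1 or 2. In Brahman skin the count was 2, and became 0 with the filter (25.4%), 6 with array weights (31.9%), 5 without the 2 arrays of lowest index (26.0%) and 2 to 4 when single arrays were left out (9.23 to 23.2%); it was 4 without infested Brahman array 1 or naive Holstein-Friesian array 3. In infested Brahman against infested Holstein-Friesian skin the count of 0 became 2 with array weights (4.51%), 3 without the 2 arrays of lowest index (9.16%) and 0 to 2 when single arrays were left out (0.0458 to 5.14%), with 2 without infested Holstein-Friesian array 1. It stayed 0 in every alternative run for the breed difference in effect and for the naive breeds. The HOXA9 difference in Brahman skin, -2.39, was -3.74 with array weights, -5.07 with the index as a covariate, -3.86 without the 2 arrays of lowest index and -3.86 to -1.47 when single arrays were left out. With the replicate block HOXB7 lost its call in Holstein-Friesian skin (adjusted p = 0.0634) and EMX2 in Brahman skin (0.0504), and no other call changed among the named HOX genes and the brightest probe sets of the named cofactors, regulators and position genes. The count over all probe sets ran from 157 to 4589 in Holstein-Friesian and from 1808 to 7657 in Brahman skin. Where a value changed, the cause was not tested, apart from the filter, which leaves fewer probe sets. The filter dropped HOXA10, HOXB7, HOXB3 and HOXB4 for their low mean signal, so their calls were not tested in that setting. Limits are 3 arrays a group, no detection calls, age and infestation that cannot be told apart, and naive animals whose age differed between the breeds. In Brahman skin the integrity index and infestation cannot be told apart either.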
